A study of Arabidopsis thaliana with 6 samples.

Results

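Salicylic acid synthesis, its signalling and the pathogenesis-related (PR) genes were followed through 10 genes in whole seedlings of Arabidopsis thaliana. The 10 genes were taken by gene ID: ICS1 (AT1G74710), EDS5 (AT4G39030), PBS3 (AT5G13320), EDS1 (AT3G48090), PAD4 (AT3G52430), NPR1 (AT1G64280), PR1 (AT2G14610), PR2 (AT3G57260), PR5 (AT1G75040) and BG3 (AT3G57240). All 10 were among the 23022 genes listed in at least 1 library. Polyadenylated RNA came from 3 libraries of a mutant labelled 17ab and 3 libraries of wild type (WT), all of seedlings 10 days old, grown upright on plates and frozen at harvest. No stress treatment or agent is named for either group, and the labels spell out neither the alleles in 17ab nor the WT strain. The title of the series concerns the unfolded protein response, the adjustment of a cell to unfolded protein in the endoplasmic reticulum. Transcripts of 3 sensors of that response were lower in every 17ab library: bZIP17 lay at 1.90 to 2.08 FPKM in 17ab and 10.24 to 11.25 FPKM in WT, IRE1A at 3.73 to 4.06 FPKM in 17ab and 12.11 to 12.60 FPKM in WT, and IRE1B at 4.52 to 5.27 FPKM in 17ab and 7.81 to 8.24 FPKM in WT. FPKM is a count of fragments divided by the length of the gene and adjusted for library size, so that it can be compared between genes of different length. In RNA of whole seedlings, fewer cells that express a gene and less RNA per cell cannot be told apart.

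Salicylic acid is the hormone by which Arabidopsis limits pathogens that feed on living tissue. In this plant most of it is made from chorismate: ICS1 makes isochorismate in the plastid, EDS5 carries it out of the plastid, and PBS3 joins it to glutamate, after which the conjugate breaks down to salicylic acid. EDS1 and PAD4 are lipase-like proteins that act as a pair upstream of ICS1 and relay signals of immune receptors. NPR1 binds salicylic acid and acts with TGA transcription factors on target promoters, where PR1, PR2 and PR5 are the textbook readouts.

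Totals of 6261789 to 6292461 expected counts in 17ab and 5968854 to 6198230 in WT stood behind these values. Counts of the 10 genes were whole numbers (tolerance 1e-06) in every library. EDS5 overlaps a gene on the opposite strand by 213 bases in the reference annotation (AT4G39040), and no source used here says whether the counting used strand, so its reads and those of this neighbour cannot be told apart there. The summed level of 3 markers of green tissue was 11300 to 12490 FPKM in 17ab and 12450 to 14870 FPKM in WT, and that of 4 root markers 32.44 to 35.93 FPKM in 17ab and 27.29 to 31.31 FPKM in WT. Of these 7 markers the carbonic anhydrase gene CA1 fell and the potassium channel gene AKT1 rose in 17ab (edgeR adjusted p = 0.02924 and 0.0002546). CA1 lost its call without 17ab replicate 1 or 3 or WT replicate 1 or 3, and AKT1 kept its call without each single library. AKT1 had 8.82 to 10.43 FPKM in 17ab, against 4.82 to 5.13 FPKM in WT. The root markers SHR and SCR had log2 fold changes of 0.07 and -0.03 that did not pass (edgeR adjusted p = 0.8007 and 0.9061). The higher root sum in 17ab therefore rested on AKT1. The root auxin exporter gene PIN2, at most 0.48 FPKM, was below the expression filter of the test. Seed storage transcripts summed to 0.58 to 0.87 FPKM in 17ab and 1.28 to 2.55 FPKM in WT. CRA1, the seed storage gene that was tested, fell by 1.5 ± 0.38 on the log2 scale (edgeR adjusted p = 0.01762). CRA1 passed the expression filter through its WT libraries alone, with 13 to 25 counts in WT and 6 to 9 in 17ab. Its call was lost without 17ab replicate 1 or WT replicate 2 or 3. Of the 2 markers of senescent leaves, SAG12 was listed in no library and SAG13 lay at 5.74 to 6.31 FPKM in 17ab and 4.13 to 7.94 FPKM in WT. What part these differences have in the values below was not tested.

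The comparison of 17ab with WT asks whether salicylic acid genes were expressed differently in the mutant. BG3 and PR1 rose in 17ab, and the other 8 genes did not pass the test, which was edgeR's quasi-likelihood test with Benjamini-Hochberg adjustment over all 17854 genes tested and a threshold of 0.05. Of all tested genes 7.57% were called higher in 17ab, 6.51% lower and 14.1% in either direction. Of the 2 risen genes, BG3 had no count in WT and entered the test through its 17ab libraries alone, so the count of 2 is not read against these shares. The median log2 fold change of the 10 genes was 0.33, and 9 of them lay above 0, beside a median of -0.002 over all tested genes. WT replicate 3 was the highest WT library for 8 of the 10 genes, as it was for 35.3% of all tested genes. With 1 library left out, BG3 alone was called in 4 of the 6 fits (without 17ab replicate 1 or 3 or WT replicate 1 or 2), BG3 and PR1 in the fit without 17ab replicate 2, and BG3, PR1, PAD4, EDS1 and PR5 in the fit without WT replicate 3, where 5.17% of all genes were called higher. The median of the 10 genes was 0.74 in that last fit (median of all genes -0.003). Leaving out the highest WT library of most of these genes raises their fold changes by construction, so this median restates the level of that library.

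**Figure D1:**
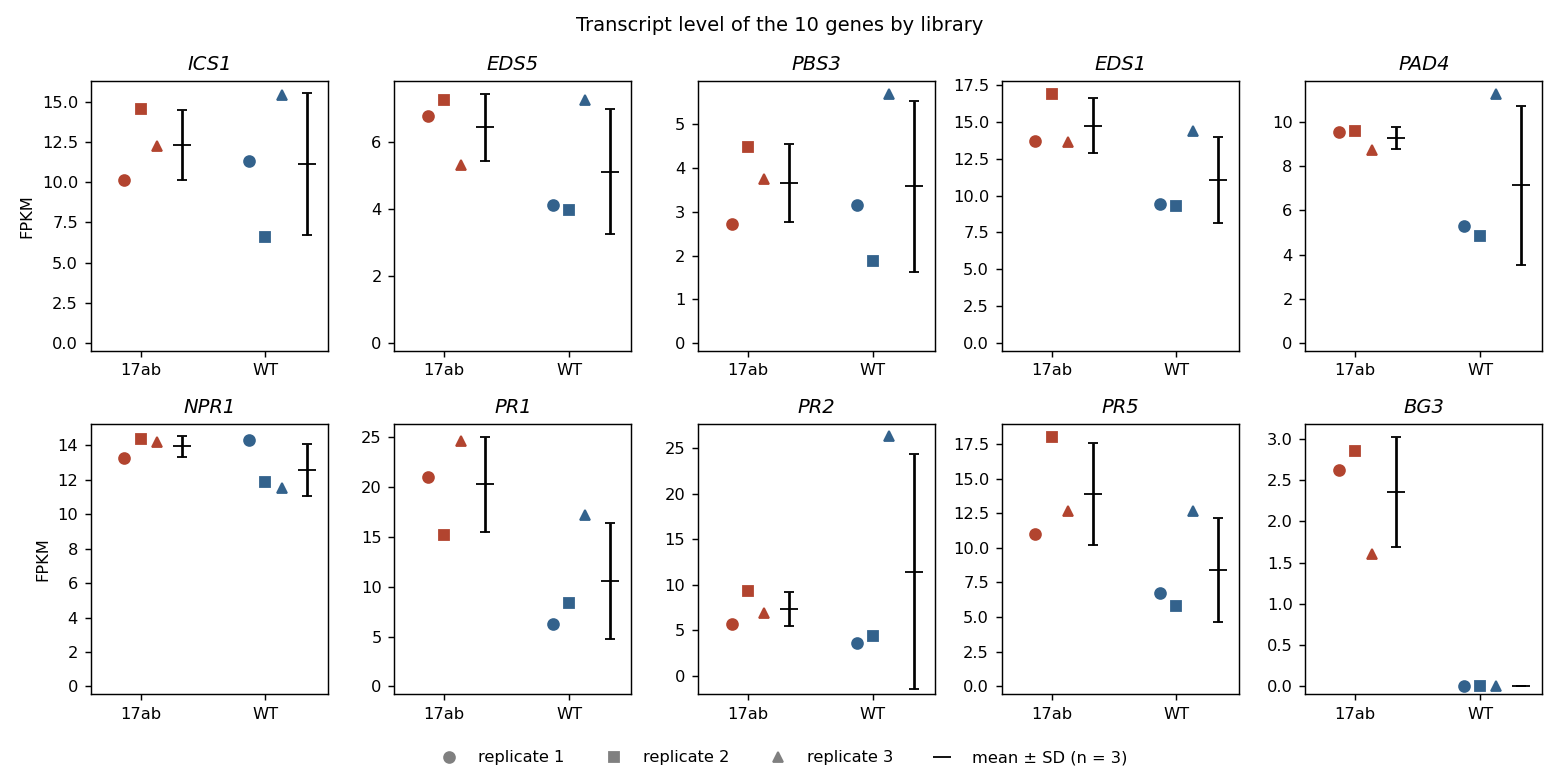
FPKM of each of the 10 genes (y axis, a separate scale per gene) in the 3 libraries of 17ab (left, red) and of WT (right, blue); the marker shape gives the replicate, and the black bar the mean ± SD (n = 3). WT replicate 3 lies at least 1.5 times above the other WT libraries in 7 panels, BG3 is at 0 in all WT libraries, and NPR1 is nearly level.

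The 3 genes of synthesis and transport were not called in either direction. ICS1, the isochorismate synthase, had 10.16, 14.54 and 12.25 FPKM in 17ab replicates 1 to 3, against 11.30, 6.61 and 15.40 FPKM in WT replicates 1 to 3. The groups overlapped fully, with the lowest and the highest value both in WT. On the log2 scale 17ab differed from WT by 0.13 ± 0.23 (SE, edgeR adjusted p = 0.7822), with a 95% interval from -0.37 to 0.62. EDS5, the transporter of the plastid envelope, had 6.77, 7.25 and 5.33 FPKM in 17ab, against 4.13, 3.96 and 7.27 FPKM in WT. All 3 libraries of 17ab lay above WT replicates 1 and 2, and all 3 lay below WT replicate 3. For EDS5 the estimate was 0.31 ± 0.21 on the log2 scale, and it did not pass (edgeR adjusted p = 0.393, 95% interval -0.15 to 0.77). PBS3, the enzyme that conjugates isochorismate to glutamate, was the least abundant of the 3, with 2.72, 4.48 and 3.76 FPKM in 17ab, against 3.16, 1.88 and 5.70 FPKM in WT. As for ICS1, the WT libraries spanned the whole 17ab group. PBS3 differed by 0.02 ± 0.31 on the log2 scale (edgeR adjusted p = 0.978, 95% interval -0.65 to 0.70), with the interval reaching well to both sides of 0. The sign of the estimates for ICS1 and PBS3 turned when single libraries were left out, from -0.15 to 0.42 for ICS1 and from -0.29 to 0.51 for PBS3 on the log2 scale.

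EDS1 and PAD4, the partners upstream of ICS1, did not pass the test, and all their 17ab libraries lay above 2 of the 3 WT libraries. EDS1 had 13.67, 16.91 and 13.64 FPKM in 17ab, against 9.44, 9.29 and 14.39 FPKM in WT. Only WT replicate 3 reached into the 17ab range. EDS1 had a log2 fold change of 0.40 ± 0.16 with a 95% interval from 0.05 to 0.75, and the adjustment over all genes gave an edgeR adjusted p of 0.126. PAD4 had 9.52, 9.58 and 8.71 FPKM in 17ab, against 5.29, 4.83 and 11.27 FPKM in WT. Its 17ab libraries were among the closest of the 10 genes, with a coefficient of variation of 5.24%, while that of WT was 50.4%. For PAD4 the log2 fold change was 0.36 ± 0.24 (edgeR adjusted p = 0.3766, 95% interval -0.16 to 0.88). Without WT replicate 3 it was 0.84 for PAD4 (edgeR adjusted p = 0.005946) and 0.65 for EDS1 (edgeR adjusted p = 0.0131), and both were called. That library was the highest of WT for both genes, so leaving it out raises their estimates by construction. Without any other library, neither gene was called.

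NPR1, the receptor and coactivator, had the lowest coefficient of variation of the 10 genes in 17ab, 4.37%. It had 13.25, 14.38 and 14.21 FPKM in 17ab, against 14.33, 11.85 and 11.54 FPKM in WT. Here WT replicate 1 was the high WT library and replicate 3 the low one. NPR1 differed by 0.12 ± 0.11 on the log2 scale (edgeR adjusted p = 0.5234), and its 95% interval, from -0.11 to 0.36, was the narrowest of the 10 genes.

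**Figure D2:**
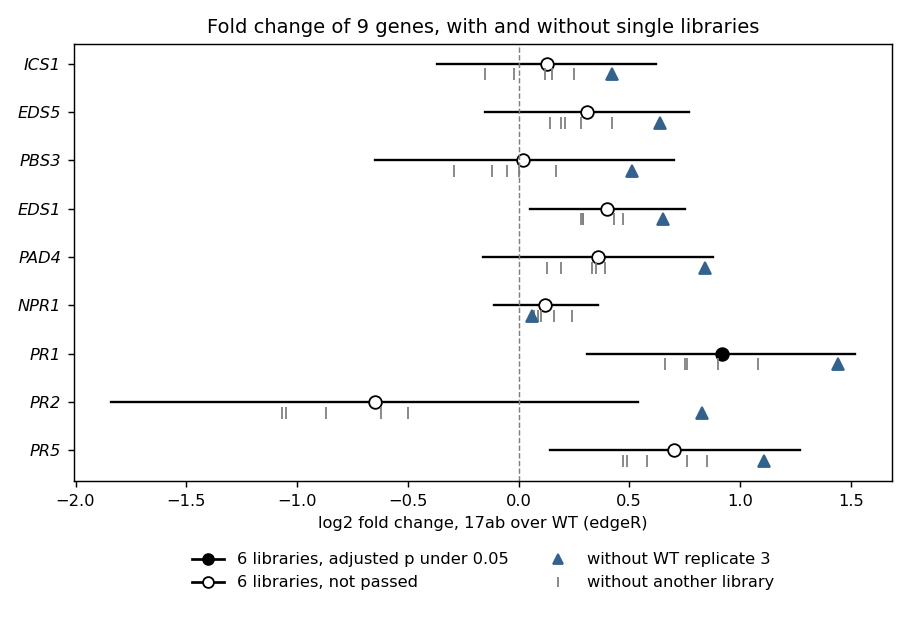
Log2 fold change of 17ab over WT (x axis) for 9 of the 10 genes; circles with lines give the fit of all 6 libraries with its 95% interval (filled where the edgeR adjusted p was under 0.05), triangles the fit without WT replicate 3 and grey ticks the fits without each other library. BG3, at 0 in WT, is left out. The triangle lies right of the circle and of every grey tick except for NPR1, and for PR2 it lies at 0.83, on the other side of 0 from the fit of all libraries at -0.65.

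Among the PR genes, PR1, a small secreted protein of the CAP family, rose in 17ab. PR1 had 20.98, 15.23 and 24.67 FPKM in 17ab, against 6.23, 8.36 and 17.18 FPKM in WT. The groups overlapped, since WT replicate 3 lay above 17ab replicate 2. Its log2 fold change was 0.92 ± 0.28 (edgeR adjusted p = 0.04493, 95% interval 0.31 to 1.52), close to the threshold. The call was lost without 17ab replicate 1 (edgeR adjusted p = 0.07893), 17ab replicate 3 (0.1481), WT replicate 1 (0.161) or WT replicate 2 (0.1605), and over all alternatives the adjusted p ran from 0.003294 to 0.161. The estimate stayed above 0 in each of these fits, at 0.66 to 1.44 with 1 library left out, and was 1.44 without WT replicate 3. That library was the highest of WT for PR1, so leaving it out raises the estimate by construction.

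PR5, a thaumatin-like protein, had 11.00, 18.02 and 12.66 FPKM in 17ab, against 6.74, 5.80 and 12.66 FPKM in WT. WT replicate 3 equalled 17ab replicate 3 at the precision of the table, and the other WT libraries lay below all of 17ab. PR5 had a log2 fold change of 0.70 ± 0.26 (95% interval 0.14 to 1.27) and did not pass the adjustment (edgeR adjusted p = 0.09302). Without WT replicate 3 it was 1.11 and passed (edgeR adjusted p = 0.0148). That library was the highest of WT for PR5, so leaving it out raises the estimate by construction.

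PR2, a secreted beta-1,3-glucanase, did not pass the test, and its coefficient of variation was 24.8% in 17ab and 112% in WT. It had 5.76, 9.34 and 6.94 FPKM in 17ab, against 3.66, 4.41 and 26.28 FPKM in WT. The 195 counts of PR2 in WT replicate 3 compare with 45 to 73 counts in 17ab and with 28 and 34 in the other WT libraries. WT replicate 3 held 6.51 times the mean FPKM of WT replicates 1 and 2. Its estimate was -0.65 ± 0.55 on the log2 scale (edgeR adjusted p = 0.4955, 95% interval -1.84 to 0.54), and without WT replicate 3 it was 0.83 (edgeR adjusted p = 0.0733). Neither fit called PR2, and the estimate was above 0 in the fit without WT replicate 3 and below 0 in every other fit with 1 library left out. Leaving out WT replicate 3, the highest library of PR2, raises its estimate by construction.

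The windows of 250 bases directly before the annotated starts of PR2 and PR5 are shown because both genes are readouts of the pathway and their promoters are where TGA and WRKY factors are known to act. They are given 5′ to 3′ on the strand of the gene, from the RefSeq sequence of TAIR10.1, on chromosomes 3 and 1. Capitals mark GTCAA, which is TTGAC, the core bound by WRKY factors, read on the other strand. The search also covered TGACG, the letters bound by TGA factors, on both strands, and the 2 motifs can overlap by their shared TGAC.
PR2: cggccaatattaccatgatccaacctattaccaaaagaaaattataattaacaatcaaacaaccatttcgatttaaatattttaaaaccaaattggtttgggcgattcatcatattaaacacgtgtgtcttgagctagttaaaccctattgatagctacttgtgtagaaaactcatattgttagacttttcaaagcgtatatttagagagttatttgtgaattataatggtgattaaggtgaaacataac
PR5: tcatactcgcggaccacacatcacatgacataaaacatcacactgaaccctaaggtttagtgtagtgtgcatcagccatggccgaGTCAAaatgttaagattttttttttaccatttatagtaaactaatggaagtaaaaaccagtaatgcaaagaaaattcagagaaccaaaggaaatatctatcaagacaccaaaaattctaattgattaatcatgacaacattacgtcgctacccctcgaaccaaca
PR5 held TTGAC once, on the other strand, at -165 to -161 from the gene start, and PR2 held neither motif in this window. Over 9 of the 10 genes, PR1 left out, TTGAC was found in 3 windows (PR5, EDS1 and EDS5) and TGACG in 1 (BG3), beside 44.9% and 18.6% of the windows of 27443 protein-coding genes. These are matches of letters in a short window and no measurement of binding.

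BG3, a second beta-1,3-glucanase that lies near PR2 on chromosome 3, rose in 17ab. It had 2.62, 2.85 and 1.60 FPKM in 17ab, against 0 in all 3 WT libraries. In counts these were 23, 25 and 14 in 17ab, against none in WT, so the groups did not overlap. The 62 counts of 17ab corresponded to 3.29 CPM (counts scaled to a common library size). A floor of 3 counts over the WT group corresponded to 0.164 CPM, and the ratio of the 2 values is 20.1. This floor covers counting error in WT only, and the counts of 17ab enter without error, so 20.1 is no lower bound. Its edgeR adjusted p was 0.000381, and the call held without each single library (at most 0.002392). BG3 passed the expression filter through its 17ab libraries alone, and at a minimum of 5 CPM in at least 3 libraries it was not tested. It was the only one of the 10 genes whose groups were apart. With 0 counts in WT, this followed from passing the filter. The separation is therefore not read against the 18.2% of all tested genes whose 17ab libraries all lay above WT. The glucanase gene BG1 next to PR2 was listed in no library. Of the genes next to BG3 in the annotation, named here after their values were seen, AGL16 had 13.38 to 15.38 FPKM in 17ab and 12.35 to 15.77 FPKM in WT, and AT3G57220 had 12.09 to 15.66 FPKM in 17ab and 11.40 to 13.72 FPKM in WT, with log2 fold changes of 0.01 and 0.05 that did not pass the test.

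The spread between libraries was larger in WT than in 17ab for all 9 genes with a value in WT. Coefficients of variation of these 9 genes ran from 4.37% for NPR1 to 26.4% for PR5 in 17ab, and from 12.2% for NPR1 to 112% for PR2 in WT. The medians over 17363 tested genes with a mean of at least 1 FPKM in both groups were 10.1% in 17ab and 9.32% in WT. WT replicate 3 lay at least 1.5 times above each other WT library for 7 of the 10 genes (EDS5, PBS3, EDS1, PAD4, PR1, PR2 and PR5), beside 1.69% of all tested genes. It was the highest of all 6 libraries for 5 of the 10 (ICS1, EDS5, PBS3, PAD4 and PR2), beside 15.5% of all tested genes. The mean of WT replicates 1 and 2 was exceeded 1.72-fold for ICS1, 2.23-fold for PAD4, 2.36-fold for PR1 and 2.02-fold for PR5 in WT replicate 3. Relative to that same mean, the 17ab average was 1.38-fold for ICS1, 1.83-fold for PAD4, 2.78-fold for PR1 and 2.22-fold for PR5. For PR2 it was 1.82-fold, beside 6.51-fold in WT replicate 3, and for NPR1 1.07-fold, beside 0.882-fold. For genes that are high in WT replicate 3, leaving it out of the mean raises these 17ab ratios by construction. With all WT libraries the edgeR fold was 1.09 for ICS1, 1.28 for PAD4, 1.89 for PR1 and 1.63 for PR5. Chloroplast genes took 0.0593% of the counts in WT replicate 3, and 0.0132% to 0.0141% in 17ab and 0.0116% to 0.0159% in the other WT libraries. The summed root markers of WT replicate 3, 31.31 FPKM, were the highest of WT. This sum rested on SCR (20.21 FPKM), while SHR (6.04 FPKM) and AKT1 (4.82 FPKM) were at their lowest WT value there. The green tissue markers of WT replicate 3, 13440 FPKM, lay between those of the other WT libraries. The part of these differences in the levels of the 10 genes was not tested.

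**Figure D3:**
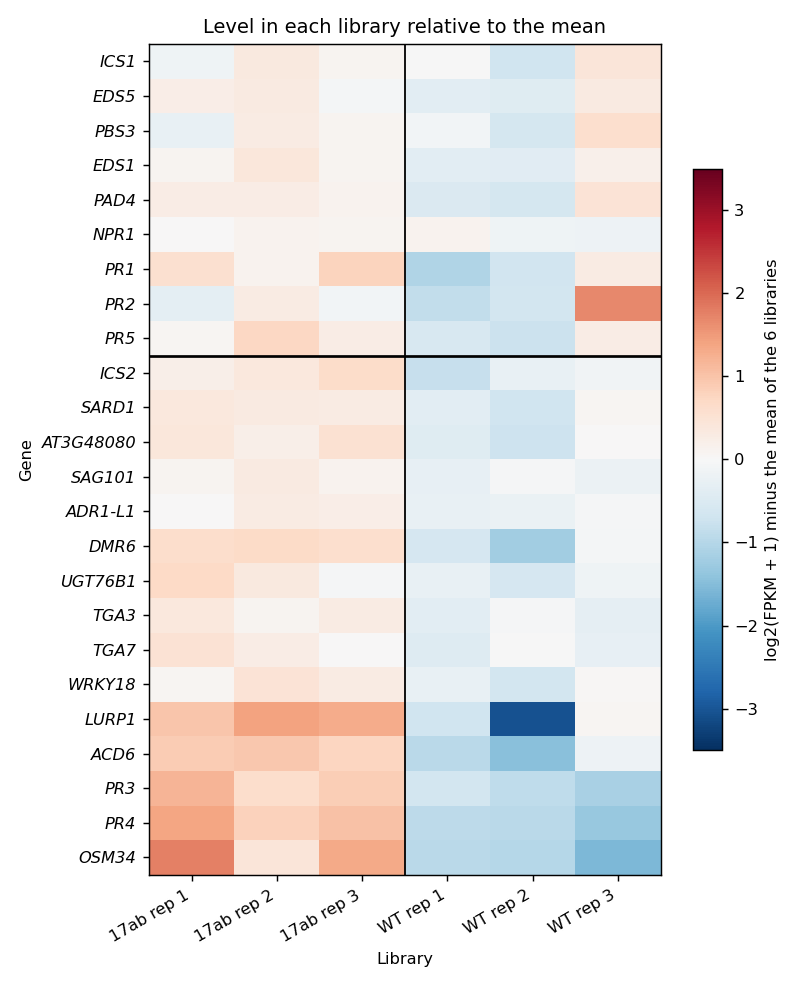
Level of each gene in each library as log2(FPKM + 1) minus the mean of the 6 libraries (color), with the 3 libraries of 17ab left of those of WT; 9 of the 10 genes stand above the horizontal line, and the other pathway genes called in 17ab below it. WT replicate 3 is on the high side for 8 of the upper rows (1.68 for PR2) and the lowest library for PR3, PR4 and OSM34.

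On the FPKM scale, in 17ab PR1 led with 20.3 ± 4.76 FPKM (SD, n = 3), followed by EDS1, NPR1, PR5 and ICS1 at 14.7 to 12.3 FPKM, then PAD4, PR2 and EDS5 at 9.27 to 6.45 FPKM, and PBS3 and BG3 at 3.65 and 2.36 FPKM. Neighbours in this order overlapped in their libraries apart from ICS1 with PAD4 and EDS5 with PBS3. In WT NPR1 led with 12.6 ± 1.53 FPKM (n = 3), and PR2, ICS1, EDS1 and PR1 followed at 11.5 to 10.6 FPKM. All neighbours overlapped in WT down to PBS3 at 3.58 FPKM, with BG3 last at 0. The second place of PR2 in WT rested on WT replicate 3: the mean of WT replicates 1 and 2 was 4.04 FPKM for PR2, equal to that of EDS5 and above only those of PBS3 (2.52 FPKM) and BG3.

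Other genes of the pathway were followed in a list of 53, which also held 4 PR genes known for induction by jasmonate and ethylene. Of the 53, 52 were listed in a library and 42 passed the expression filter. In 17ab 15 of these 42 rose, none fell (PAL2 did without WT replicate 2) and 27 did not pass, beside 7.57% of all tested genes called higher. The median log2 fold change was 0.44, with 36 of 42 above 0, beside -0.002 for all tested genes. These 42 include 3 of the jasmonate and ethylene type PR genes, and all 3 are among the 15 that rose. Their log2 fold changes, 2.06 to 2.70, were the highest of the 42, so the counts do not describe salicylic acid genes alone. The libraries of 17ab all lay above those of WT for 22 of the 42 and all below for 2, beside 18.2% and 31.1% of all tested genes apart with 17ab higher and in either direction. With 1 library left out the number of called genes was 8 to 18, lowest without 17ab replicate 2 (8) and WT replicate 1 (9) and highest without WT replicate 3 (18). All genes called higher made up 6.32%, 6.11% and 6.11% of those tested without 17ab replicates 1, 2 and 3, and 5.09%, 4.91% and 5.17% without WT replicates 1, 2 and 3. Under the other settings tried this share was 7.48% with DESeq2 size factors, 6.02% without a filter, 8.21% with at least 5 CPM in at least 3 libraries, 5.87% with the replicate block, 4.29% in DESeq2, 6.38% by limma-trend at a pseudocount of 1 FPKM, 6.08% by limma-trend at 0.1 FPKM, 7.18% with the offset on GC content and length, and 5.53% with that offset and the block. The 11 genes that were not tested reached at most 2.91 FPKM in any library.

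Around synthesis, 2 of 8 genes rose. SARD1, a transcription factor that acts on ICS1, had 5.85, 5.65 and 5.55 FPKM in 17ab, against 3.16, 2.27 and 4.64 FPKM in WT (log2 fold change 0.74 ± 0.21, edgeR adjusted p = 0.03334). ICS2, the second isochorismate synthase and the weaker contributor, had 2.63, 3.08 and 3.92 FPKM in 17ab, against 0.83, 1.65 and 1.91 FPKM in WT (log2 fold change 1.09 ± 0.31, edgeR adjusted p = 0.03437). In both genes the groups were apart, while those of ICS1 overlapped. CBP60G, the partner of SARD1, had a log2 fold change of 0.52 ± 0.27 and did not pass (edgeR adjusted p = 0.2297), though it did without WT replicate 3 (0.01619). That library was its highest of WT (5.66 FPKM, against 2.27 and 2.84 FPKM), so leaving it out raises the estimate by construction. The 4 genes of phenylalanine ammonia lyase, which opens the other route to salicylic acid, had log2 fold changes from -0.46 to 0.21 that did not pass, and 1 of them, PAL2, fell by 0.33 without WT replicate 2 (edgeR adjusted p = 0.03409). Some reads of PAL1 and PAL2 had been divided between genes.

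Among partners and inputs of EDS1 and PAD4, 3 of 8 genes rose. SAG101, a lipase-like partner of EDS1, had 8.44, 9.89 and 8.69 FPKM in 17ab, against 6.24, 7.55 and 6.69 FPKM in WT (log2 fold change 0.56 ± 0.14, edgeR adjusted p = 0.0156). AT3G48080, a close copy of EDS1, had 1.41, 1.1 and 1.66 FPKM in 17ab, against 0.37, 0.12 and 0.84 FPKM in WT (1.61 ± 0.46, edgeR adjusted p = 0.03246). In counts AT3G48080 had 23, 18 and 27 in 17ab, against 6, 2 and 13 in WT. It passed the expression filter through its 17ab libraries, and the WT libraries alone would not have met it. Its call, and its place in the count of risen genes, carry that limit. Its counts and those of EDS1 were whole numbers, but no source used here says how reads common to close copies were counted, and both genes are uncertain to that extent. ADR1-L1, a helper receptor that works with EDS1 and PAD4, rose by 0.34 ± 0.09 on the log2 scale (edgeR adjusted p = 0.02338), and the related ADR1 had a log2 fold change of 0.43 ± 0.14 that did not pass (edgeR adjusted p = 0.05174).

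In the turnover of salicylic acid, DMR6 and UGT76B1 rose among 4 tested genes. DMR6, a hydroxylase of salicylic acid, had 23.91, 24.75 and 23.25 FPKM in 17ab, against 9.68, 6.01 and 14.29 FPKM in WT (log2 fold change 1.24 ± 0.20, edgeR adjusted p = 0.001552). The 3 libraries of 17ab lay close together and all above WT replicate 3. UGT76B1, a glycosyltransferase of defence metabolites including salicylic acid, rose by 0.79 ± 0.23 (edgeR adjusted p = 0.03421). UGT74F1 and UGT74F2, which attach glucose to salicylic acid, did not pass, and reads of both had been divided between genes. UGT74F2 passed without 17ab replicate 1 (log2 fold change 0.44, edgeR adjusted p = 0.004202).

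Of 12 tested relatives and partners of NPR1, the transcription factor genes TGA3 and TGA7 rose. TGA3 had 21.76, 17.86 and 20.58 FPKM in 17ab, against 12.74, 16.11 and 13.30 FPKM in WT (log2 fold change 0.49 ± 0.11, edgeR adjusted p = 0.01041), and TGA7 rose by 0.53 ± 0.15 (edgeR adjusted p = 0.03036). The receptors NPR3 and NPR4, known as corepressors that salicylic acid inhibits, had log2 fold changes of 0.24 ± 0.12 and 0.36 ± 0.14 and did not pass (edgeR adjusted p = 0.2083 and 0.1056), though NPR4 did without 17ab replicate 1 (0.01467). The other 5 TGA genes of the list lay between -0.18 and 0.11.

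Of the responsive genes, 3 of 5 tested rose. ACD6, a membrane protein whose gain of function raises salicylic acid, had 50.59, 52.42 and 45.88 FPKM in 17ab, against 13.51, 9.16 and 23.82 FPKM in WT (log2 fold change 1.65 ± 0.22, edgeR adjusted p = 0.0003867). Some reads of ACD6 had been divided with other genes. LURP1, named for its late rise in response to an oomycete, had 46.01, 63.05 and 58.18 FPKM in 17ab, against 13.84, 1.89 and 23.93 FPKM in WT (1.97 ± 0.37, edgeR adjusted p = 0.003587, and 0.1321 with DESeq2). In both genes WT replicate 3 was again the highest WT library, yet it stayed below all of 17ab. WRKY18, a regulator of pathogen response, rose by 0.57 ± 0.17 on the log2 scale (edgeR adjusted p = 0.04661), a call that was kept in 3 of 9 other settings and lost, for example, with DESeq2 (0.08209) and with the offset on GC content and length (0.0594). WRKY70 and FMO1, the enzyme that makes N-hydroxypipecolate, had log2 fold changes of 0.78 ± 0.32 and 1.63 ± 0.60 that did not pass (edgeR adjusted p = 0.1267 and 0.09091), though both did without WT replicate 3 (0.00539 and 0.01703). For both genes that library was the highest of WT, so leaving it out raises their estimates by construction. In that fit FMO1 passed the expression filter through its 17ab libraries alone, with 4 and 0 counts in WT replicates 1 and 2. WRKY38, below the filter and named after its values were seen, had 1.59, 1.47 and 1.23 FPKM in 17ab, against 0.25, 0.12 and 0.13 FPKM in WT, and was called when no filter was set. Of the 11 untested genes of the list, WRKY38 was the only 1 called in that fit. PRB1, the basic relative of PR1, was not tested at 1.66 to 2.77 FPKM in 17ab and 0.97 to 1.51 FPKM in WT.

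PR genes known for induction by jasmonate and ethylene were called in all 3 tested cases, with log2 fold changes of 2.06 to 2.70. WT replicate 3 was the lowest of the 6 libraries in each. The hevein-like PR4 had 293.33, 195.16 and 229.21 FPKM in 17ab, against 58.35, 57.23 and 44.37 FPKM in WT (log2 fold change 2.14 ± 0.14, edgeR adjusted p = 2.982e-06). The basic chitinase gene PR3 had 15.80, 10.10 and 12.25 FPKM in 17ab, against 3.68, 2.94 and 2.32 FPKM in WT (2.06 ± 0.22, edgeR adjusted p = 7.694e-05), and the osmotin-like OSM34 had 30.20, 11.30 and 22.28 FPKM in 17ab, against 3.80, 3.63 and 2.11 FPKM in WT (2.70 ± 0.34, edgeR adjusted p = 0.0002361). The difference between these genes and PR1, PR2 or PR5 was not tested. The defensin gene PDF1.2A was below the filter, at 0.86 to 2.00 FPKM in 17ab and 0.29 to 1.2 FPKM in WT.

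**Figure D4:**
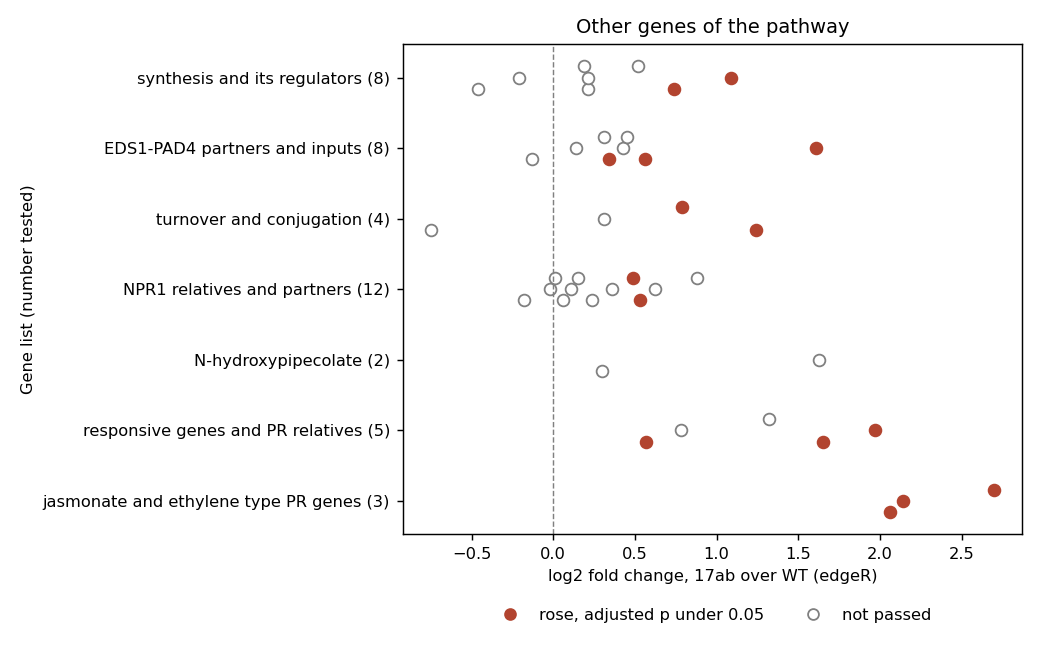
Log2 fold change of 17ab over WT (x axis) of the 42 tested genes of the wider list, 1 point per gene, by group of genes (y axis, with the number tested); filled points passed at an edgeR adjusted p under 0.05. All 15 filled points lie right of 0, and the 3 jasmonate and ethylene type PR genes lie at 2.06 to 2.70.

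Of the 15 calls, 7 held in each of the 6 fits without 1 library: DMR6, TGA3, ACD6, LURP1, PR3, PR4 and OSM34. SAG101 lost its call without 17ab replicate 2 or WT replicate 3. ICS2, ADR1-L1 and WRKY18 lost theirs without 17ab replicate 2 or 3 or WT replicate 1 or 2, and AT3G48080 without 17ab replicate 1 or 3 or WT replicate 1 or 2. TGA7 lost it without 17ab replicate 1 or 2 or WT replicate 1 or 3, UGT76B1 without any library except 17ab replicate 3, and SARD1 without any library except WT replicate 3. Adjusted p-values of these 8 genes reached at most 0.0957 (SAG101) to 0.1762 (WRKY18) over all alternatives, and each estimate stayed above 0 without any single library.

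The genes whose levels over the 6 libraries ran closest to the PR genes were sought among 13686 others with a mean of at least 5 FPKM, by the root mean square difference of their centred log2(FPKM + 1) values. Closest to PR1 were CHI (AT2G43570), XBAT34 (AT4G14365) and SAL2 (AT5G64000), at 0.245, 0.247 and 0.271. XBAT34 had 14.04, 13.85 and 14.47 FPKM in 17ab, against 4.84, 4.16 and 10.85 FPKM in WT. Closest to PR5 were the receptor-like kinase gene SOBIR1 (AT2G31880), the heat shock factor gene HSF A4A (AT4G18880) and AT3G28540, whose reads were partly divided, at 0.154, 0.164 and 0.169. SOBIR1 had 41.02, 50.84 and 44.16 FPKM in 17ab, against 22.15, 19.69 and 33.93 FPKM in WT. Closest to PR2 were AT3G60415, AIG1 (AT1G33960) and the chloroplast gene ATCG00280, some of whose reads had been divided between genes, at 0.378, 0.390 and 0.398, and WT replicate 3 was the highest library for each of them as for PR2. AIG1 had 4.60, 5.58 and 2.86 FPKM in 17ab, against 4.36, 2.44 and 21.35 FPKM in WT. The nearest of the 10 genes themselves were PAD4 for PR1 (0.383), EDS1 for PR5 (0.223) and PBS3 for PR2 (0.552). These values describe 6 libraries and the genes share their depth and preparation.

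Among genes next to PR1 in the reference annotation, named here after their values were seen, LURP1 and XTH10 rose and AT2G14660 fell. XTH10, a gene of the xyloglucan endotransglucosylase/hydrolase family, had 3.35, 2.73 and 2.87 FPKM in 17ab, against 0.90, 0.76 and 0.53 FPKM in WT (log2 fold change 1.99 ± 0.35, edgeR adjusted p = 0.002276). AT2G14660 had 5.80, 4.51 and 3.88 FPKM in 17ab, against 8.77, 9.15 and 7.69 FPKM in WT (-0.88 ± 0.24, edgeR adjusted p = 0.02736). Its call was lost without 17ab replicate 2 or 3 or WT replicate 1 or 2. XTH10, with 22 to 27 counts in 17ab and 4 to 7 in WT, passed the expression filter through its 17ab libraries alone. The groups of both genes were apart, as were those of 31.1% of all tested genes in either direction. For XTH10 the filter favours such a separation, so it is not read against that share. Neither gene followed the high WT replicate 3 of PR1, since that library was the lowest WT library for each.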

How the data were processed

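The deposited tables, 1 per library, give the length of each gene beside its expected count and its FPKM, per the file headers, and hold only genes above 0. The authors' expected counts are estimated reads per gene. FPKM as the authors deposited it scales them by length and library total. In the submitters' processing notes STAR 2.4.0, HTSeq 0.6.0, DESeq2 and TAIR10 appear, with no role. Unlisted genes were set to 0. Names, gene order, GC content, exon length and upstream sequence came from RefSeq TAIR10.1 (99.2% of IDs matched), a build of another name, so no coordinates are printed. Rounded expected counts of all 6 libraries entered a fit of genotype alone with edgeR 4.0.16 (R 4.3.3), using its quasi-likelihood test, TMM normalization and default expression filter, and p-values were adjusted by Benjamini-Hochberg over 17854 genes. The SE is the absolute log2 fold change over the square root of F, and 95% intervals use the t distribution with edgeR's total degrees of freedom. The test was checked on simulated counts.

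No label says that libraries came from separate plates or plants, so p-values reflect only how these samples vary, which may be technical. The 10 genes, the list of 53 and the markers were chosen with earlier results of these data known. The rule for naming took the 10, every called gene of the list, ICS2, AT3G48080, SAG101, NPR3, NPR4, BG1 and PRB1, the markers, and the 3 genes nearest to each of PR1, PR2 and PR5. Other genes were named after their values were seen. The upstream window of PR1 is not reported here. Alternatives were DESeq2 size factors, no filter, a filter of 5 CPM in 3 libraries, each library left out, DESeq2 1.42.0, a block for the replicate number, limma-trend (limma 3.58.1, on log2(FPKM + 1) or log2(FPKM + 0.1), with a minimum of 1 FPKM in 3 libraries), and an offset for the loess trend (span 0.5) of each library on GC content and log length, with and without the block. These 95% intervals include the variation between libraries, while the floor of 3 counts covers counting error in WT only.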

Additional observations from a re-analysis of the deposited data

How the results depend on the processing

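Of the 10 genes, 2 were called. The number was 1 with a filter of 5 CPM, where BG3 was not tested and PR1 remained, 1 with limma-trend on log2(FPKM + 1) or log2(FPKM + 0.1), where only BG3 was called, and 1 to 5 with 1 library left out. It was 2 with DESeq2 size factors, no filter, DESeq2, the replicate block, and the offset on GC content and length with or without the block. Of the wider list 15 genes were called, 8 with DESeq2, 9 with limma-trend on log2(FPKM + 1), 9 on log2(FPKM + 0.1), and 8 to 18 with 1 library left out. Of all genes 2515 were called, 1599 with DESeq2, 1676 with the replicate block and the offset together, and 1571 to 2090 with 1 library left out. The cause of these shifts was not tested. Estimates that did not pass changed sign for PBS3 with the offset (-0.02) and, with 1 library left out, for ICS1 (-0.15 to 0.42), PBS3 (-0.29 to 0.51) and PR2 (-1.07 to 0.83). Replicate numbers did not pair the libraries: deviations from the group means correlated at -0.00279, -0.108 and -0.0457 for numbers 1, 2 and 3, and no library correlated best with its own number. With the replicate block 1853 genes and 14 of the wider list were called, WRKY18 losing its call (adjusted p = 0.07206), and the 2 of the 10 genes were again PR1 and BG3. Depth limits BG3 and PBS3 most of the 10 genes, at 14 to 25 counts of BG3 in 17ab, and 39 to 58 in 17ab and 25 to 72 in WT for PBS3.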
